A study of Homo sapiens with 6 samples.

Results

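The 37 genes of the human mitochondrial genome were followed in HaCat cells, a human keratinocyte line that is immortalised, with and without ultraviolet B (UVB) light. They were the rows of the deposited gene table with an Ensembl gene identifier and a symbol that starts with MT-, 37 of 58735 genes. Among them are 2 ribosomal RNA (rRNA) genes, 22 transfer RNA (tRNA) genes and 13 protein-coding (mRNA) genes. RNA was sequenced from 3 control dishes and from 3 dishes that received UVB at a dose labelled 50 mJ, with no area given, and were cultured for 24 h afterwards. No culture time is labelled for the controls, so any difference in time in culture cannot be told apart from UVB. All 6 came from the same line, and the labels name no genotype, transgene or other agent. The study's title concerns endogenous retroviruses and RIG-I signalling in keratinocytes under ultraviolet light. The labels do not say whether dishes were independent cultures. The p-values therefore reflect the spread among these 6 samples, part of which can be technical.

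The mitochondrial genome is a small circular DNA that is copied into RNA on both strands. Each strand is read as a long precursor by the polymerase POLRMT, and the tRNAs that lie between the other genes are cut out of it, which frees the rRNAs and mRNAs. The mRNAs encode subunits of the respiratory chain and of ATP synthase, and the rRNAs and tRNAs serve the ribosomes inside mitochondria that translate them. In keratinocytes this chain supplies ATP and reactive oxygen species. In the annotation, 28 genes lie on the plus strand and 9 on the minus strand. The minus-strand genes are MT-ND6 and the tRNA genes MT-TQ, MT-TA, MT-TN, MT-TC, MT-TY, MT-TS1, MT-TE and MT-TP.

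The results below turn on the tRNAs, so 7 of them are shown, each as the reference RNA-strand sequence in DNA letters. MT-TA, MT-TN, MT-TC and MT-TY form the minus-strand cluster that rose after UVB. MT-TW is their plus-strand neighbour, MT-TV lies between the rRNA genes, and MT-TQ is the minus-strand tRNA that fell most. Capitals mark the anticodon, found as the only triplet in the middle of the tRNA that follows a T, precedes a purine and reads the amino acid in the vertebrate mitochondrial code. The sequences are those of GENCODE release 29 on GRCh38.
MT-TA: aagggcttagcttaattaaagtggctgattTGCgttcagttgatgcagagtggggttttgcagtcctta
MT-TN: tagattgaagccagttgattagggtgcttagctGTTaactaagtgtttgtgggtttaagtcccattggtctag
MT-TC: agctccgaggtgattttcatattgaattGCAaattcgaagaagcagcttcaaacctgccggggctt
MT-TY: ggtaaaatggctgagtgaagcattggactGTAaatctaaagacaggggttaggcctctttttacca
MT-TW: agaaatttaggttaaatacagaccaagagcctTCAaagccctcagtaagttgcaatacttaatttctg
MT-TV: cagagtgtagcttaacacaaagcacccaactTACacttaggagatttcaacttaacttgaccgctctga
MT-TQ: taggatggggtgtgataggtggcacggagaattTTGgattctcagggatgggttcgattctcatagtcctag

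The libraries held between 66272443 and 88484020 assigned reads, and 7.84% to 8.64% of these lay on the mitochondrial genome. These totals take each unit recovered from the deposited values as a read, which is not known. Of the 6 keratinocyte markers examined, all reached a mean of 0.5 FPKM (fragments per kilobase, scaled to library depth). The markers did not move together. KRT5 fell from 287 to 122 FPKM on average and DSP from 81.1 to 71.0 FPKM, KRT14 rose from 1.02 to 1.73 FPKM, and KRT17, TP63 and CDH1 did not pass. Their summed level, most of it KRT5 in the controls, ranged from 367 to 504 FPKM in the controls and from 216 to 285 FPKM after UVB. Whether this bears on the mitochondrial genes was not tested. Of the markers of other cell types, 1 of 4 for melanocytes, 0 of 5 for fibroblasts, 1 of 4 for leukocytes and 1 of 4 for endothelium reached that mean, namely PMEL, CD14 and CDH5, while TYR, CD3E, LYZ and KDR were listed at 0 in every library.

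After UVB the mitochondrial genes did not move as one. Both rRNAs and the minus-strand tRNAs MT-TA, MT-TN, MT-TC and MT-TY were higher, whereas 13 of 14 plus-strand tRNAs and 10 of 13 mRNAs, MT-ND6 among them, were lower. In all, 6 of the 37 genes were higher, 26 were lower and 5 did not pass, and all 37 reached the expression filter of a mean of 0.5 FPKM. The test was limma on log2(FPKM + 1) over 14921 genes, with a Benjamini-Hochberg adjusted p under 0.05. Of all genes tested, 27.9% were called, 17% as higher and 11% as lower. The values of control and UVB libraries did not overlap for 32 of the 37 members, against 45.8% of all genes tested. The median log2 fold change was -0.59 over the members and 0.04 over all genes tested. Each library was made from 1 µg of total RNA and its values are scaled to depth, so they are relative levels and not amounts per cell. In bulk RNA, a change in all cells and a change in only some of them cannot be told apart. Copies of mitochondrial DNA were not measured.

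**Figure D1:**
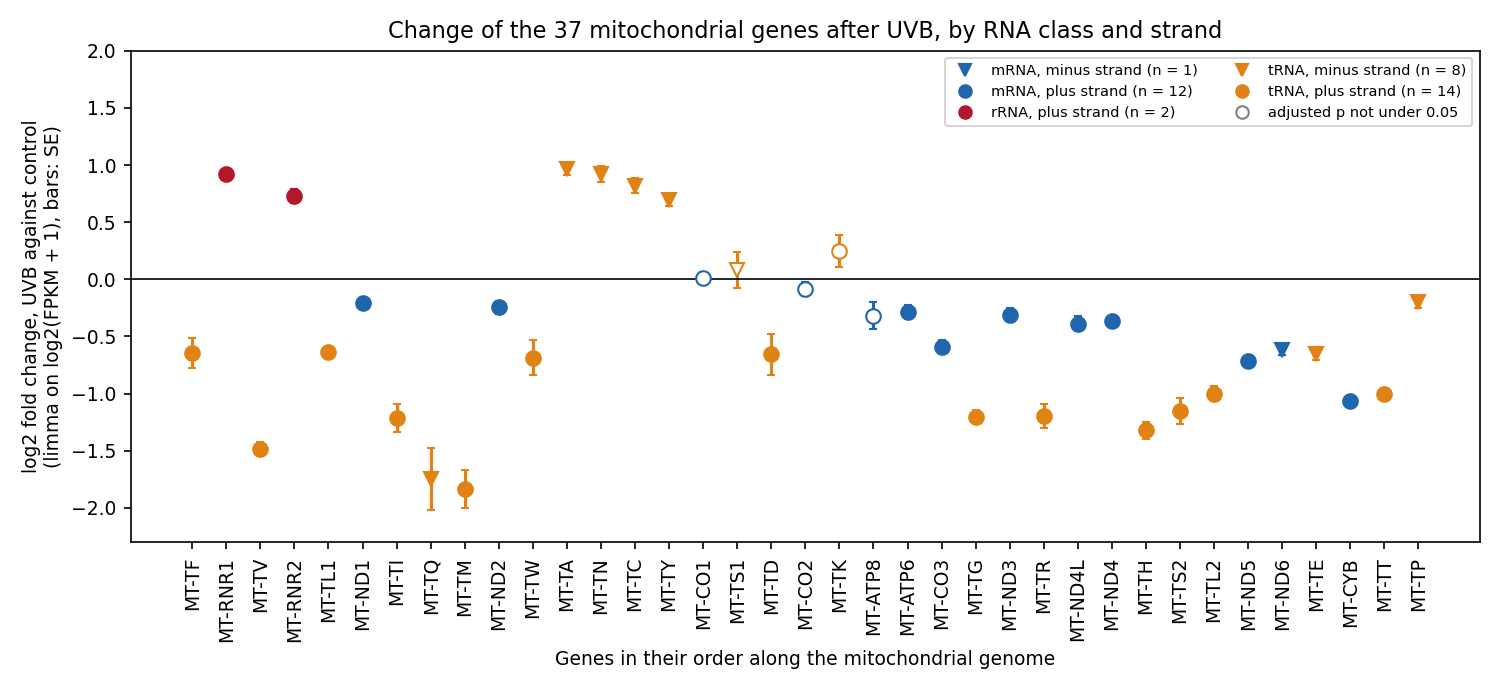
Log2 fold change (UVB against control, limma on log2(FPKM + 1), bars are SE) of each of the 37 genes, placed in their order along the genome. Colour gives the RNA class, circles and triangles the plus and minus strand, and open symbols genes that did not pass; the rRNAs and the cluster from MT-TA to MT-TY lie above 0, and 13 of 14 plus-strand tRNAs are called and lie below 0.

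Both rRNAs rose. MT-RNR1 (chromosome M, 648 to 1601, plus strand, GRCh38) encodes the rRNA of the small mitochondrial ribosomal subunit. It measured 1754, 1855 and 1952 FPKM in the controls and 3508, 3502 and 3514 FPKM after UVB. Every UVB library thus lay far above every control, and the UVB libraries differed little among themselves. On the log2 scale the rise was 0.92 ± 0.0478 (SE; limma, adjusted p = 0.000139). MT-RNR2 (1671 to 3229, plus strand) encodes the rRNA of the large subunit. It measured 9939, 9689 and 11024 FPKM in the controls and 16668, 17514 and 16470 FPKM after UVB, again without overlap. On the log2 scale it rose by 0.73 ± 0.0615 (SE; limma, adjusted p = 0.000632), a call that was lost without the expression filter (adjusted p = 0.142). The ratio of MT-RNR1 to MT-RNR2 within a library was 0.182 in the controls and 0.208 after UVB (geometric means of FPKM ratios, n = 3 each). Whether rRNA was removed or poly(A) RNA selected is not given in the sources used here. How far such a step sets the reads on the rRNA genes, and their shares and ratios below, was not tested.

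MT-TV (1602 to 1670), the valine tRNA, lies between the rRNA genes with no base to spare on either side, and it fell. It measured 227, 216 and 231 FPKM in the controls and 82.7, 83.5 and 73.4 FPKM after UVB. All UVB libraries were near a common level well below the controls. That is a log2 fold change of -1.48 ± 0.0608 (SE; limma, adjusted p = 6.97e-05). Relative to MT-RNR1 in the same library, MT-TV ranged from 0.116 to 0.129 in the controls and from 0.0209 to 0.0239 after UVB. MT-TF (577 to 647), the phenylalanine tRNA just before MT-RNR1, and MT-TL1 (3230 to 3304), a leucine tRNA just after MT-RNR2, were lower too. MT-TF went from 20.3 ± 2.94 to 12.6 ± 1.87 FPKM and MT-TL1 from 279 ± 12.7 to 179 ± 3.58 FPKM (SD, n = 3 each). The log2 fold changes were -0.65 and -0.64 (limma adjusted p = 0.0148 and 0.000325). All 3 tRNAs that flank the rRNAs thus fell in this fit where the rRNAs rose. MT-TF held only 64 to 136 reads in a library and did not pass in the authors' deposited table.

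The 4 tRNAs that rose lie side by side on the minus strand, from 5587 to 5891. Between MT-TN and MT-TC lie 31 bases, which hold the origin of light-strand replication, and MT-TC and MT-TY share 1 base. MT-TA (5587 to 5655), the alanine tRNA, had control values of 742, 812 and 748 FPKM and UVB values of 1553, 1514 and 1423 FPKM. MT-TN (5657 to 5729), the asparagine tRNA, measured 1617, 1821 and 1806 FPKM in the controls and 3437, 3418 and 3063 FPKM after UVB. In both, each UVB library lay well above each control. MT-TC (5761 to 5826), the cysteine tRNA, measured 1696, 1905 and 1897 FPKM in the controls and 3334, 3346 and 3022 FPKM after UVB. MT-TY (5826 to 5891), the tyrosine tRNA, measured 1050.1, 1140 and 1031 FPKM in the controls and 1782, 1755 and 1677 FPKM after UVB. The groups did not overlap here either. The log2 fold changes of MT-TA, MT-TN, MT-TC and MT-TY were 0.96 ± 0.0540, 0.92 ± 0.0693, 0.82 ± 0.0663 and 0.70 ± 0.0516 (SE, limma adjusted p = 0.000162, 0.000408, 0.000538 and 0.000386).

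These 4 tRNA genes also had the highest levels of all tRNA genes, in both groups. In the controls they lay between 767 and 1833 FPKM on average, while the other 18 lay between 2.33 and 295 FPKM. Of the proportions taken within the cluster, some moved and others did not. MT-TN relative to MT-TY and MT-TA relative to MT-TC were not taken. MT-TA stood at 0.707 to 0.725 times MT-TY in the controls and at 0.848 to 0.871 times after UVB, without overlap. MT-TN stood at 0.952 to 0.956 times MT-TC in the controls and at 1.01 to 1.03 times after UVB, again without overlap. MT-TN stood at 2.18 to 2.42 times MT-TA in the controls and 2.15 to 2.26 times after UVB, so these ranges overlap. The ranges of MT-TC relative to MT-TY also overlap, at 1.61 to 1.84 and 1.80 to 1.91.

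Between MT-TW and MT-TA, where the annotated strand switches, both the level and the direction of change differed. MT-TW (5512 to 5579), the tryptophan tRNA, lies 7 bases before MT-TA on the plus strand. It measured 11.4, 8.43 and 8.14 FPKM in the controls and 4.46, 5.65 and 6.12 FPKM after UVB, with a log2 fold change of -0.68 ± 0.151 (SE, limma adjusted p = 0.0188). Between 22 and 54 reads lay on MT-TW in a library, and between 3554 and 9246 on MT-TA. MT-TA was 64.9 to 96.2 times as high as MT-TW in the controls and 233 to 348 times as high after UVB (ratios of FPKM within a library). MT-TW lost its call when UVB replicate 1 was left out (-0.57) and with the edgeR count test (-0.84, adjusted p = 0.0685).

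The other minus-strand tRNAs did not rise. MT-TQ (4329 to 4400), the glutamine tRNA, measured 9.61, 6.50 and 9.91 FPKM in the controls and 1.15, 1.57 and 3.15 FPKM after UVB. These values rest on 31 to 58 reads in the controls and 6 to 18 after UVB, and the groups did not overlap. At a log2 fold change of -1.75 ± 0.268 (SE; limma, adjusted p = 0.00534), this was the deepest fall of the minus strand. MT-TE (14674 to 14742), the glutamic acid tRNA next to MT-ND6, fell from 295 ± 19.2 to 188 ± 7.69 FPKM (SD, n = 3 each), a log2 fold change of -0.65 (limma adjusted p = 0.000797). MT-TP (15956 to 16023), the proline tRNA, measured 148, 156 and 162 FPKM in the controls and 133, 141 and 132 FPKM after UVB. Its log2 fold change of -0.20 was close to the threshold (limma adjusted p = 0.0294). The call did not hold on leaving out UVB replicate 1 (-0.19) or 3 (-0.18) or control replicate 2 (-0.19) or 3 (-0.17), nor with edgeR (-0.25, adjusted p = 0.0854). MT-TS1 (7446 to 7514), a serine tRNA, had 9 to 18 reads in a library and a log2 fold change of 0.08 (limma adjusted p = 0.739). Of the 8 minus-strand tRNAs, 4 were thus higher, 3 were lower and 1 did not pass.

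**Figure D2:**
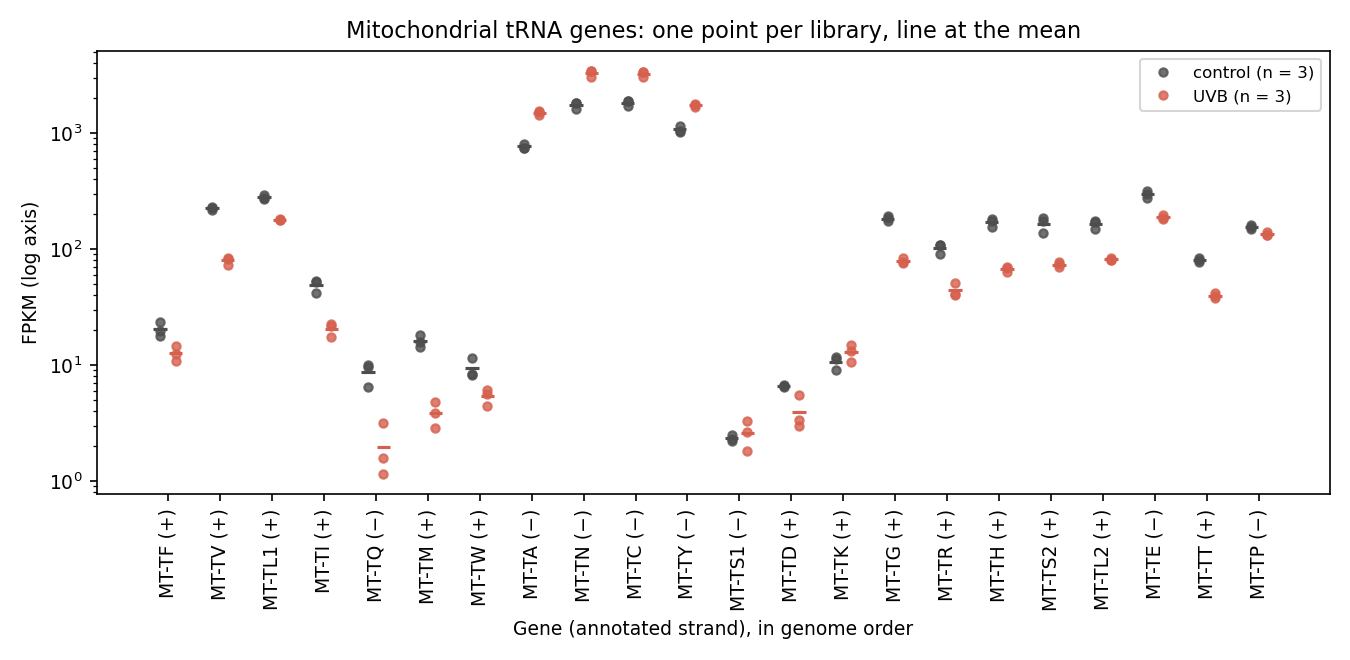
FPKM (log axis) of the 22 tRNA genes in genome order, with the annotated strand after each name, one point per library and a line at the mean of each group (n = 3). The 4 genes from MT-TA to MT-TY rise, while MT-TV and most plus-strand tRNAs sit lower after UVB in every library.

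On the plus strand, 13 of 14 tRNAs were lower and none was higher, with a median log2 fold change of -1.08 over the 14. MT-TM (4402 to 4469), the methionine tRNA that also starts translation, fell most. It measured 18.0, 14.2 and 15.9 FPKM in the controls and 2.84, 3.82 and 4.82 FPKM after UVB, on 64 to 88 and 14 to 26 reads. The groups were far apart, with a log2 fold change of -1.83 ± 0.162 (SE, limma adjusted p = 0.000719). MT-TI (4263 to 4331), the isoleucine tRNA, which shares 3 bases with MT-TQ on the other strand, fell from 48.8 ± 6.16 to 20.5 ± 2.72 FPKM (SD, n = 3 each), at 42.0% of its control level.

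The 3 tRNAs between MT-ND4 and MT-ND5 follow each other with no base between them. MT-TH (12138 to 12206), the histidine tRNA, measured 183, 174 and 155 FPKM in the controls and 69.1, 69.9 and 63.8 FPKM after UVB. MT-TS2 (12207 to 12265), the second serine tRNA, measured 185, 175 and 137 FPKM and then 76.7, 73.9 and 69.6 FPKM. MT-TL2 (12266 to 12336), the second leucine tRNA, measured 175, 170 and 148 FPKM and then 80.99, 82.9 and 80.8 FPKM. In all 3, control replicate 3 was the lowest control and still lay well above the UVB libraries. They fell to 39.6%, 44.3% and 49.5% of their control means (limma adjusted p = 0.000153, 0.00105 and 0.000274). MT-TG (9991 to 10058) for glycine, MT-TR (10405 to 10469) for arginine and MT-TT (15888 to 15953) for threonine fell by a like amount, to 43.1%, 43.2% and 49.4% of their control means. The limma adjusted p values were 0.000104, 0.00076 and 0.000125.

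The tRNAs with the fewest reads had the largest SEs, but not always the least firm calls. MT-TQ and MT-TM kept their calls in all 16 alternatives, and MT-TP, with 657 to 897 reads, lost its call most often. MT-TD (7518 to 7585), the aspartic acid tRNA, had 30 to 36 reads in the controls and 16 to 27 after UVB. Its log2 fold change of -0.66 (limma adjusted p = 0.0381) lost its call without any 1 of 5 libraries, all but UVB replicate 1, at values from -0.52 to -0.66, and with edgeR at -0.80 (adjusted p = 0.12). MT-TK (8295 to 8364), the lysine tRNA, was the plus-strand tRNA that did not pass. It measured 11.3, 9.05 and 11.6 FPKM in the controls and 14.97, 10.7 and 13.1 FPKM after UVB, so the groups overlap, with a log2 fold change of 0.25 (limma adjusted p = 0.232).

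Each tRNA gene is 59 to 75 bases long. How fragments that reach beyond a gene were counted is not given in the sources used here, so reads on a tRNA gene may come from the mature tRNA or from a precursor that holds it, and their parts were not tested. The tRNA genes also differ in base composition by strand. G made up 23.5% to 36.1% of the 8 minus-strand tRNA genes and 10.3% to 19.1% of the 14 plus-strand ones. Over the 22 tRNA genes, Pearson's r between G percent and log2 fold change was 0.43 and Spearman's rho was 0.36, given as a description. The G ranges of the strands do not overlap, and every tRNA called higher lies on the minus strand. These measures therefore cannot be told apart from strand, and they were not computed within a strand. On each strand the tRNA with the most G fell most, MT-TQ on the minus strand and MT-TM, at 19.1%, on the plus strand. The higher range holds both MT-TA, which rose most, at 30.4%, and MT-TQ, which fell most of the minus strand, at 36.1%. MT-TQ rests on 6 to 18 reads after UVB and MT-TM on 14 to 26. Whether base composition bears on these changes was not tested.

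MT-ND6 (ENSG00000198695, 14149 to 14673) is the only protein-coding gene of the minus strand and encodes a membrane subunit of complex I, the first enzyme of the respiratory chain. It measured 1571, 1687 and 1625 FPKM in the controls and 1064, 1091 and 1029.6 FPKM after UVB. The groups were well separated, with a log2 fold change of -0.62 ± 0.0435 (SE, limma adjusted p = 0.000333). With quantile normalization it was -0.18 and the call was lost (limma adjusted p = 0.105). MT-ND6 thus fell while the tRNA cluster of its own strand rose. MT-ND5 (12337 to 14148), which ends at the base before MT-ND6 on the other strand, measured 1550, 1678 and 1656 FPKM and then 967, 1026 and 975 FPKM, a log2 fold change of -0.72 ± 0.0470 (SE, limma adjusted p = 0.000264). The ratio of MT-ND6 to MT-ND5 within a library was 1.01, 1.01 and 0.981 in control libraries, against 1.10, 1.06 and 1.06 in UVB libraries. The UVB ratios were all higher, by 0.10 on the log2 scale.

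In sequence, MT-ND6 stands apart from the other mRNAs, with 35.6% G and 7.05% C in its RNA-strand sequence, against 6.28% to 16.2% G in the 12 plus-strand mRNAs. The strand setting of the counting is not given in the sources used here. Reads of MT-ND6 and reads of the plus-strand precursor that runs antisense to it therefore cannot be told apart with certainty, and the same holds for the cluster from MT-TA to MT-TY. Among nuclear genes, ZNF593 shares 100% of its exon length with AL391650.1 on the opposite strand and held 1428 to 2608 reads. AL391650.1 shares 37.1% of its exon length with ZNF593 and held 67 to 132. AL139099.1 shares 100% of its own with MGAT2 on the opposite strand and held 0, beside 3855 to 6171 on MGAT2. Whether the mitochondrial genes were counted in the same way was not tested.

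The 7 complex I mRNAs were all lower in this fit. Without the expression filter MT-ND1, MT-ND2, MT-ND3, MT-ND4L and MT-ND4 lost their calls (limma adjusted p = 0.147 to 0.254). With quantile normalization MT-ND2 (-0.31), MT-ND4L and MT-ND4 (both 0) lost theirs, as MT-ND6 did. MT-ND1 (3307 to 4262) and MT-ND2 (4470 to 5511) fell least. MT-ND1 went from 2007 ± 86.3 to 1735 ± 39.2 FPKM and MT-ND2 from 2867 ± 203 to 2414 ± 65.7 FPKM (SD, n = 3 each). Their log2 fold changes were -0.21 and -0.25 (limma adjusted p = 0.0170 and 0.0245). Neither call held on leaving out UVB replicate 1 (-0.19 and -0.23) or UVB replicate 3 (-0.21 and -0.25). MT-ND2 also lost its call without UVB replicate 2 (-0.27). MT-ND3 (10059 to 10404), MT-ND4L (10470 to 10766) and MT-ND4 (10760 to 12137), which shares 7 bases with MT-ND4L, encode further membrane subunits. They fell to 80.7%, 76.4% and 77.6% of their control means, with log2 fold changes of -0.31, -0.39 and -0.37 (limma adjusted p = 0.0108, 0.00715 and 0.00279).

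MT-CYB (14747 to 15887) encodes cytochrome b of complex III, the only mitochondrially encoded subunit of that complex, and fell most of the mRNAs. It measured 3939, 3887 and 4247 FPKM in the controls and 1888, 1957 and 1924 FPKM after UVB. Every UVB library was near the same level, at 47.8% of the control mean. This is a log2 fold change of -1.06 ± 0.0468 (SE; limma, adjusted p = 8.13e-05).

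The complex IV mRNAs encode the catalytic core of cytochrome c oxidase and were divided. MT-CO1 (5904 to 7445) measured 10654, 10406 and 11516 FPKM in the controls and 10784, 11276 and 10846 FPKM after UVB. MT-CO2 (7586 to 8269) measured 13627, 13000 and 14950 FPKM and then 12876, 13499 and 12855 FPKM. The groups overlap for both, and neither passed, at log2 fold changes of 0.02 and -0.08 (limma adjusted p = 0.855 and 0.374), the former at -0.04 with TMM scaling. With quantile normalization MT-CO2 passed, at -0.30 (limma adjusted p = 2.1e-05). MT-CO3 (9207 to 9990) measured 11278, 11370 and 12640 FPKM and then 8025, 7836 and 7537 FPKM, a log2 fold change of -0.59 ± 0.0586 (SE, limma adjusted p = 0.00105), and lost its call without the expression filter (adjusted p = 0.150).

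MT-ATP6 (8527 to 9207) and MT-ATP8 (8366 to 8572) encode subunits of ATP synthase and share 46 bases. MT-ATP6 fell from 3021 ± 199 to 2473 ± 104 FPKM (SD, n = 3 each), a log2 fold change of -0.29 (limma adjusted p = 0.0161). Its call was lost without UVB replicate 1 (-0.29) or 3 (-0.26), or without the expression filter (adjusted p = 0.195). MT-ATP8 measured 4655, 3894 and 4889 FPKM and then 3113, 3980 and 3702 FPKM, which overlap. Its log2 fold change of -0.32 did not pass (limma adjusted p = 0.0975) and passed without control replicate 2, at -0.41.

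Among the 12 plus-strand mRNAs, those farther along the genome had the lower log2 fold changes. Pearson's r between start position and log2 fold change was -0.80 and Spearman's rho was -0.87 over these 12 genes, which share the same libraries and are not independent, so this is a description. Among the 14 plus-strand tRNAs the same measures were -0.03 and -0.05.

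**Figure D3:**
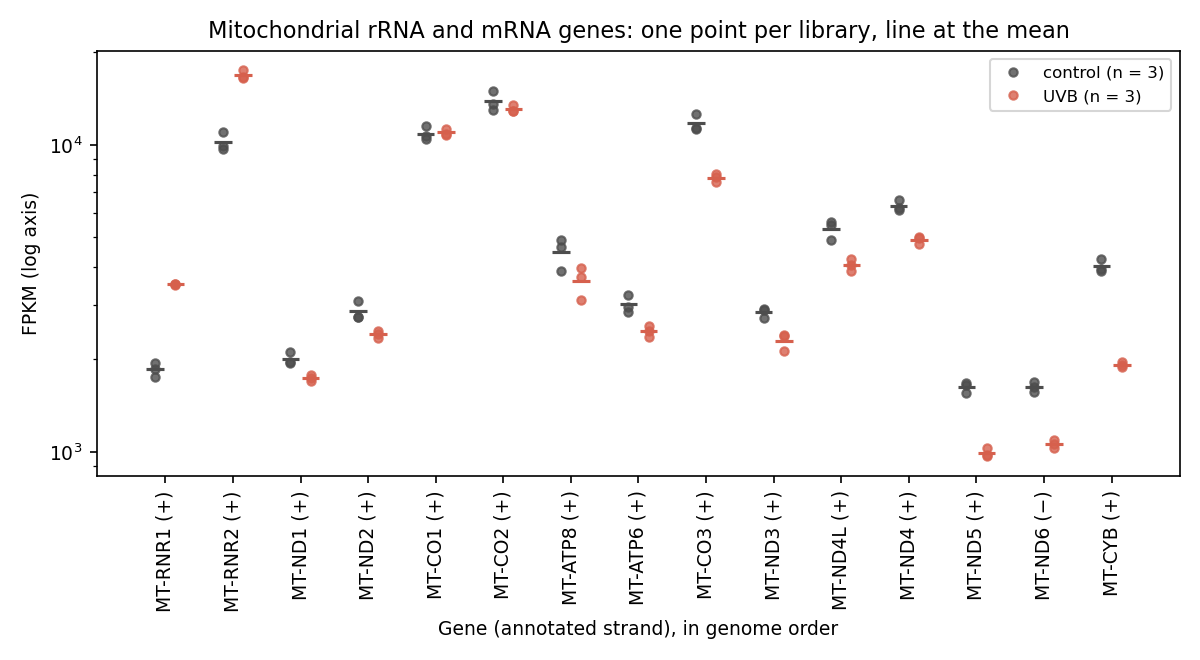
FPKM (log axis) of the 2 rRNA and 13 mRNA genes in genome order, with the annotated strand after each name, one point per library and a line at the mean of each group (n = 3). MT-RNR1 and MT-RNR2 are higher after UVB, MT-CO1 and MT-CO2 overlap between groups, and MT-CYB at the right is lower in every UVB library.

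Several mRNA values are uncertain because the nuclear genome holds near-identical copies. Of the 37 members, 14 had an annotated nuclear transcript with at least 90% identity over at least 50% of their length, among them 11 mRNAs, 2 tRNAs and 1 rRNA. Of these copies, 3 held at least 1% as many reads as the member, all on chromosome 1 (GRCh38). MTATP6P1 (633696 to 634376) is 98.5% identical to MT-ATP6 and held 52.1% as many reads. MTND2P28 (629640 to 630683) is 98.4% identical to MT-ND2 and held 13.9% as many, and MTCO1P12 (631074 to 632616) is 98.6% identical to MT-CO1 and held 1.30% as many. With the reads of these copies added, the log2 fold changes of MT-ATP6, MT-ND2 and MT-CO1 were -0.30, -0.25 and 0.02, and no call changed. MTND2P28 and MTCO1P12 lie 390 bases apart, and MT-ND2 and MT-CO1 lie 392 bases apart. In the mitochondrial genome that interval holds MT-TW and the cluster from MT-TA to MT-TY. A nuclear copy of the cluster was not searched for, since no genome sequence was used here.

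Shares, drawn from the same reads, describe the same division without any scaling between libraries. Reads on the rRNA genes made up 21.8%, 21.5% and 22.05% of mitochondrial reads in the controls and 36.1%, 36.2% and 35.8% after UVB. Reads on the mRNA genes made up 77.6%, 77.8% and 77.4% and then 62.9%, 62.9% and 63.3%. The replicates of a group thus differed by less than 1 percentage point, far less than the groups. All tRNA genes together held only 0.624% and 0.904%, so a rise of the rRNA share brings a fall of the mRNA share with it. Of all assigned reads, the rRNA genes held 1.77% ± 0.118 and 2.97% ± 0.0860, without overlap. The mRNA genes held 6.30% ± 0.332 and 5.19% ± 0.121 of them, also without overlap (SD, n = 3 each). The tRNA cluster from MT-TA to MT-TY made up 0.459% ± 0.0333 and 0.818% ± 0.0383 of mitochondrial reads, and the 14 plus-strand tRNAs 0.126% ± 0.0121 and 0.0591% ± 0.000376 (SD, n = 3 each). Of all assigned reads, the mitochondrial genome held 8.12% ± 0.450 in the controls and 8.23% ± 0.208 after UVB, which overlap (SD, n = 3 each).

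**Figure D4:**
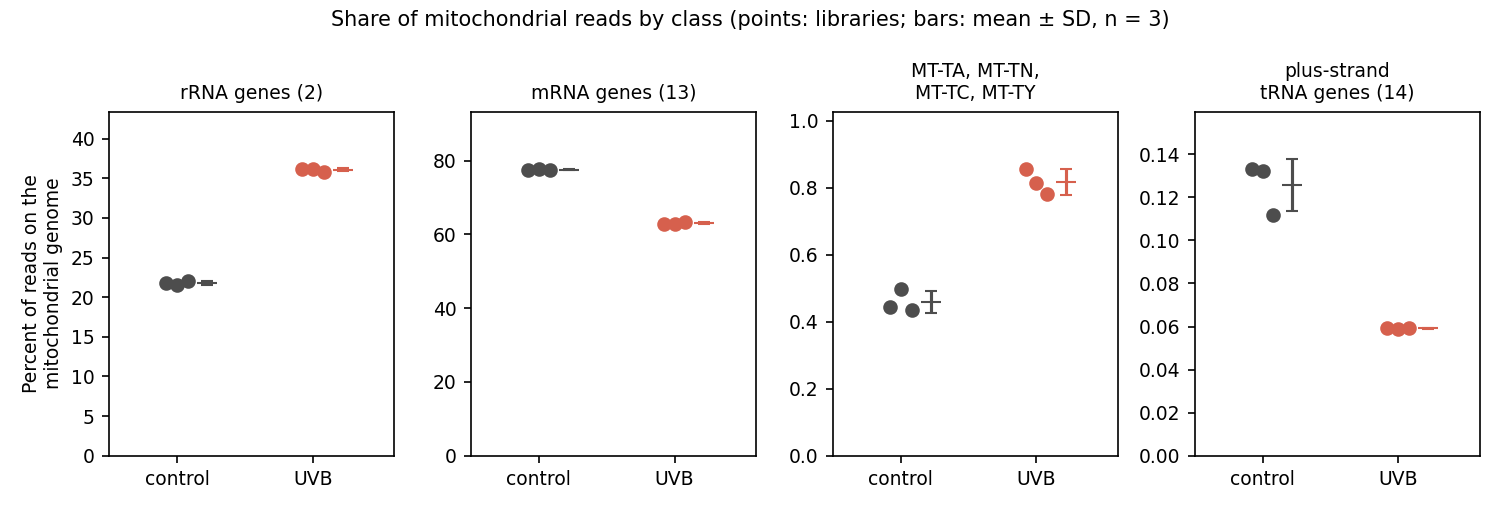
Percent of mitochondrial reads on the rRNA genes, the mRNA genes, the tRNA genes from MT-TA to MT-TY and the plus-strand tRNA genes, with points for libraries and bars for mean ± SD (n = 3 per group). The rRNA share rises from 21.8% to 36.1% and the mRNA share falls from 77.6% to 63.0%.

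By strand, the totals hid these opposite changes. The 9 minus-strand genes held 0.126% ± 0.00491 (control) and 0.125% ± 0.00506 (UVB) of assigned reads, and the 28 plus-strand genes 7.996% ± 0.450 and 8.10% ± 0.205 (SD, n = 3 each). Control and UVB libraries overlap for both strands. Summed FPKM of the minus-strand tRNAs was 3.97 times that of the plus-strand tRNAs in the controls and 14.4 times after UVB (geometric means of the ratio within a library). These sums are dominated by the cluster from MT-TA to MT-TY.

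Ratios between genes of a library also separated the groups. MT-CYB relative to MT-CO1 was 0.371 in the controls and 0.175 after UVB, and MT-ND5 relative to MT-ND1 was 0.811 and 0.570 (geometric means, n = 3 each). MT-ND6 relative to MT-CYB was 0.405 and 0.552, so MT-ND6 fell less than its neighbour across MT-TE. For these 3 ratios, MT-ND6 to MT-ND5 and MT-RNR1 to MT-RNR2, the groups did not overlap, and the 2-sided exact permutation p was 0.1 for each of the 5, also after Benjamini-Hochberg adjustment. That is the smallest p that 3 against 3 libraries allow. Summed rRNA relative to summed mRNA was 0.171 in the controls and 0.356 after UVB.

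**Figure D5:**
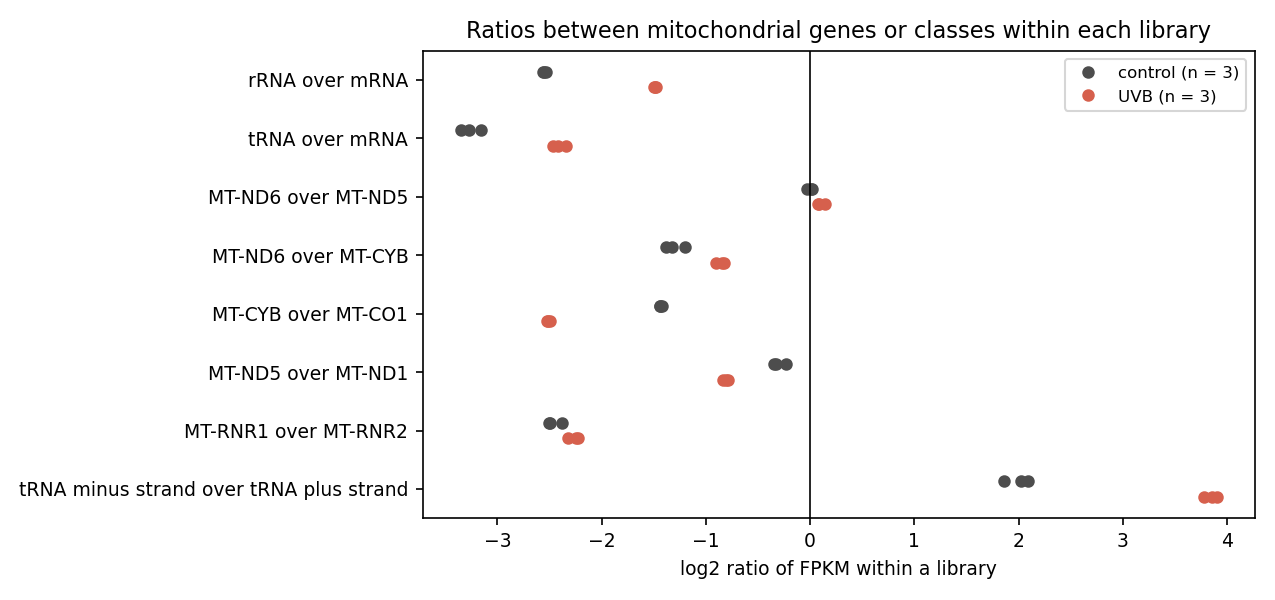
Log2 ratios of FPKM between mitochondrial genes or summed classes, computed within each of the 6 libraries (points). Control and UVB libraries do not overlap for any of the 8 ratios, and the ratio of MT-ND6 to MT-ND5 differs least, by 0.10 on the log2 scale.

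When the members were rescaled to the summed mitochondrial FPKM of each library, the same 6 were higher and the same 26 lower (limma). The edgeR count test on recovered reads called 6 higher and 23 lower, against 26.5% of all genes called by it, with 13.3% in each direction. In the authors' deposited table, 6 members had an adjusted p under 0.05 and a positive log2 fold change and 18 a negative one, against 8.6% of genes with an adjusted p. Lower in the limma fit but not under 0.05 there were MT-TF, MT-TQ, MT-TW, MT-TD, MT-TP, MT-ND1, MT-ND2 and MT-ATP6.

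Nuclear genes that copy, transcribe and process mitochondrial nucleic acids were examined as a list of 69, all of which were tested. Of these, 11 were higher, 3 were lower and 55 did not pass, against 17% of all genes higher and 11% lower. The median log2 fold change rounds to 0.04 for the list and for all genes tested. The lower count rose to 7 with TMM scaling, 8 with edgeR and 12 with DESeq2. POLRMT, the mitochondrial RNA polymerase, measured 22.9, 22.8 and 22.9 FPKM in the controls and 29.5, 27.4 and 30.2 FPKM after UVB, without overlap, a log2 fold change of 0.33 (limma adjusted p = 0.00454). Its partners did not pass. TFAM packages mitochondrial DNA and binds promoters, TFB2M melts them, and TEFM is the elongation factor. Their log2 fold changes were 0.06, -0.04 and 0.01, and the sign of TEFM turned with TMM scaling (-0.03).

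Of the 17 genes of RNA processing and stability, none was higher and 2 were lower, and the latter share is close to the 11% of all genes called lower. TRMT10C, a subunit of the RNase P that cuts the 5′ ends of mitochondrial tRNAs, fell from 38.2 ± 2.19 to 30.8 ± 1.80 FPKM (SD, n = 3 each), a log2 fold change of -0.30 (limma adjusted p = 0.0159). FASTKD5, needed for the release of mRNAs that no tRNA flanks, had a log2 fold change of -0.21 (limma adjusted p = 0.0213). TRMT10C lost its call without control replicate 1 (-0.29) or UVB replicate 3 (-0.26). FASTKD5 lost its call without control replicate 2 (-0.199) or 3 (-0.196) and without UVB replicate 1 (-0.18) or 2 (-0.21). LRPPRC and SLIRP, the complex that stabilises mitochondrial mRNAs, measured 29.6 ± 1.80 and 28.8 ± 1.42 FPKM, and 22.2 ± 1.42 and 22.7 ± 1.45 FPKM (SD, n = 3 each), and did not pass. PNPT1, the exonuclease of the mitochondrial degradosome and an interferon-stimulated gene, rose from 11.1 ± 0.836 to 14.8 ± 0.712 FPKM (SD, n = 3 each), a log2 fold change of 0.39 (limma adjusted p = 0.00813). Its helicase partner SUPV3L1 had a log2 fold change of 0.17 and did not pass (limma adjusted p = 0.222).

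Of the 14 genes of rRNA modification and ribosome assembly, 5 were higher and none was lower, beside 17% of all genes higher and 11% lower. MRM3, a methyltransferase of the large rRNA, rose from 18.2 ± 2.09 to 25.7 ± 0.457 FPKM (SD, n = 3 each), and RPUSD3, a pseudouridine synthase family member, and NSUN4, a methyltransferase of the small rRNA, had log2 fold changes of 0.45 and 0.36 (limma adjusted p = 0.0139 and 0.0223). The call of RPUSD3 was lost without UVB replicate 3 (0.43). NSUN4 lost its call on leaving out control replicate 1 (0.31) or 3 (0.34), or UVB replicate 2 (0.34) or 3 (0.33). Of 19 tRNA modification genes, 3 were higher and 1 was lower, and the former share is close to the 17% of all genes called higher. CDK5RAP1, which modifies mitochondrial tRNAs next to the anticodon, rose by 0.37 and lost its call without UVB replicate 3 (0.37). OSGEPL1, which does so with threonine, fell from 2.24 ± 0.112 to 1.29 ± 0.154 FPKM (SD, n = 3 each), a log2 fold change of -0.50 (limma adjusted p = 0.00554). TOP1MT, the mitochondrial topoisomerase, had a log2 fold change of 0.35 and lost its call without any 1 of 5 libraries, all but control replicate 2, at 0.28 to 0.37.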

How the data were processed

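Processed tables of 6 RNA-seq libraries were analysed. The labels' protocols give Trizol extraction and 1 µg of total RNA as input; whether rRNA was removed or poly(A) RNA selected is not given in the sources used here, nor are the counter, its strand setting and the annotation release. The submitters' processing notes name HISAT2 2.0.5, StringTie, DESeq and hg38 (GRCh38). The authors deposited FPKM values of 58735 genes and 771683 repeat copies, and read counts of 74 repeat copies. These counts gave the assigned reads per library, and then 100% of non-zero FPKM values were whole reads (tolerance 0.01). Per the file headers, the deposited table also holds the authors' mean normalised signal, log2 fold changes, test scores and p-values.

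limma 3.58.1 (mean-trended eBayes, R 4.3.3) was run on log2(FPKM + 1) for genes whose mean reached 0.5 FPKM. Fold changes are on that scale, which understates changes of low genes. p-values were adjusted over all genes tested. Groups came from sample titles. Alternatives were other pseudocounts, filters and scalings, edgeR 4.0.16 and DESeq2 1.42.0 on recovered reads, a block for replicate number, and the omission of single libraries. Adding reads of nuclear copies was chosen after the data were seen. Single ratios were tested by exact permutation. The tests were tried on simulated data. Members and lists were chosen with earlier results of these data known. All 37 members are named. Of 69 nuclear genes, up to 6 higher and 6 lower with the largest change past the threshold are named, plus 8 by role. Coordinates and sequences come from GENCODE release 29, and BLAST 2.17.0 found nuclear copies.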

Additional observations from a re-analysis of the deposited data

How the results depend on the processing

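Over 16 alternatives, 21 of the 37 mitochondrial genes kept their direction and their side of the threshold in every one. Higher members numbered 5 to 6 in all alternatives. Lower members fell from 26 to 17 without the expression filter, where MT-RNR2, 7 mRNAs (5 of complex I, MT-CO3 and MT-ATP6), MT-TD and MT-TP lost their calls (the cause was not tested), and numbered 21 to 25 on leaving out 1 library. MT-CO1 was at -0.0398 with DESeq2, -0.0377 with TMM scaling and -0.0391 with edgeR, and ranged from -0.0144 to 0.0587 over left-out libraries, and MT-TS1 from -0.0626 to 0.245. Quantile normalization, which sets the highest ranks equal, gave 0 for MT-ND4 and MT-ND4L and -0.18 for MT-ND6, whose calls were lost with those of MT-ND2 and MT-TP, and -0.30 for MT-CO2, which then passed.

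Among nuclear genes that did not pass, quantile normalization turned TFAM to -0.0286, TEFM to -0.0501 and SLIRP to -0.0515. DESeq2, TMM scaling and edgeR turned TEFM to -0.0434, -0.0324 and -0.0428 and SLIRP to -0.0218, -0.0197 and -0.0207. Over left-out libraries TEFM ranged from -0.0613 to 0.0911, LRPPRC from -0.0741 to 0.00853 and SLIRP from -0.00231 to 0.0826. Lower nuclear genes of the list numbered 3, against 12 with DESeq2, 7 with TMM scaling, 8 with edgeR and 5 with quantile normalization. Higher ones numbered 11, and 6 to 11 over left-out libraries, with 6 without UVB replicate 3 and 7 without control replicate 1. The UVB minus control difference in percent of assigned reads ranged from -0.00315 to 0.00229 for the minus strand and from -0.0352 to 0.368 for the plus strand.

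Of all genes, 2530 were higher and 1637 lower, 60.7% of calls being higher. TMM scaling gave 1931 and 1955 (49.7%), edgeR 1979 each (50%) and DESeq2 2404 and 2365 (50.4%), and leaving out 1 library 1629 to 2081 higher genes, the fewest without UVB replicate 3. Replicate numbers are shared between groups. Over all genes tested, deviations of same-numbered libraries correlated by only 0.0221 to 0.0481, although each library correlated best with its own number. Single genes did share a pattern. TP63 measured 17.4, 8.25 and 8.35 FPKM in the controls and 16.2, 7.40 and 7.17 FPKM after UVB. KRT5 and KRT17 were also highest in replicate 1 of both groups, and DSP was lowest there. For KRT14 and CDH1, replicate 1 did not hold the same rank in both groups. Whether the libraries are pairs is therefore not settled, and the main fit did not pair them. With a replicate block, 1789 genes were higher and 1240 lower, and 6 and 21 members. Precision is lowest for tRNA genes with few reads, such as MT-TS1 with 9 to 18.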
